A study of Mus musculus with 6 samples.

Results

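The 7 genes Slc5a1, Slc5a2, Slc2a1, Slc2a2, Pck1, Fbp1 and Khk carry glucose across the membranes of kidney tubule cells, make glucose there or break down fructose. They were taken by their symbols and are 7 of the 33696 genes in the feature list of every library. Their UMIs (unique molecular identifiers, each standing for 1 captured mRNA molecule) were summed per mouse over proximal tubule cells and over the segments of the proximal tubule, and the sums of sham and DOCA-salt mice were compared. Male C57BL/6 mice of 8 to 10 weeks were used, 3 in each group, with 1 library of dissociated kidney cells per mouse. DOCA-salt mice carried a pellet with 50 mg of deoxycorticosterone acetate, a mineralocorticoid, drank 1% NaCl for 21 days and had lost the left kidney beforehand. Sham mice had a sham operation and kept both kidneys, so the loss of a kidney, the steroid and the salt cannot be told apart here. The model is a single time point in males, and no value of blood glucose, blood pH, food intake or time of day of tissue collection was analysed here.

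The proximal tubule takes back the glucose that the glomerulus filters. Slc5a2 encodes SGLT2, a sodium-coupled carrier of high capacity in the brush border of the early segment (S1), and Slc5a1 encodes SGLT1, a carrier of higher affinity found further down. Glucose leaves the cell on the blood side through facilitative carriers, GLUT2 (Slc2a2) in the proximal tubule and GLUT1 (Slc2a1) mostly in later segments that live on glycolysis. The same cells make new glucose from lactate and glutamine. PEPCK (Pck1) turns oxaloacetate into phosphoenolpyruvate, the first committed step, and it is known to rise in acidosis and in fasting. Fructose-1,6-bisphosphatase (Fbp1) acts near the end of the route. Ketohexokinase (Khk) phosphorylates fructose and so opens its breakdown.

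On the GRCm39 assembly, the build named for these files, GENCODE places Pck1 at chr2:172994744-173001066 on the plus strand with 10 exons in its main transcript. Slc5a1 lies at chr5:33261563-33320214 (plus strand, 15 exons) and Khk at chr5:31078775-31101479 (plus strand, 9 exons). Slc5a2 lies at chr7:127864829-127871602 (plus strand, 14 exons), Slc2a1 at chr4:118965908-118996365 (plus strand, 10 exons), Slc2a2 at chr3:28752051-28785508 (plus strand, 11 exons) and Fbp1 at chr13:63012567-63036263 (minus strand, 7 exons). Pck1 and Fbp1 overlap no other annotated gene. Slc5a1 overlaps the processed pseudogene Gm15936 on its own strand and 5033423K11Rik and Gm70709 on the opposite strand. On its own strand Slc2a1 overlaps the microRNA Mir1957a. None of these overlapping genes is in the feature list. Slc5a2 overlaps Rusf1, Khk overlaps Cgref1, Slc2a1 overlaps the long noncoding RNAs Gm12867 and Gm12868, and Slc2a2 overlaps 1700112D23Rik, all on the opposite strand and all with counts of their own in the files. Whether the counting used the strand is not given in the sources used here, so reads shared by such pairs cannot be told apart.

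The stretches before the start of Pck1, Slc5a1, Fbp1 and Khk are printed to show the sequence context of members called as changed in some set of cells. Pck1 and Slc5a1 were called higher in some proximal segments, Slc5a1 without a detectable change in whole-kidney sums. Fbp1 and Khk were called lower in whole-kidney sums. RefSeq's promoter table (GRCm38.p6) held 6 of the 7 members, without Slc5a2. Each 250-base stretch ends at the base before RefSeq's start and matched GRCm39 at 1 place on its chromosome. It lies at chr2:172994616-172994865 for Pck1, at chr5:33261313-33261562 for Slc5a1 and at chr5:31078653-31078902 for Khk, these 3 on the plus strand, and at chr13:63036097-63036346 on the minus strand for Fbp1. RefSeq's start lies inside the gene as placed by GENCODE above for Pck1, Khk and Fbp1. Part of each of their stretches is therefore within that gene, with the marked letters of Pck1 and Khk. Capitals mark matches, on either strand, to the letters of an E-box (CACGTG), the core of a cAMP response element (ACGTCA), a nuclear receptor element (AGGTCA) and a steroid receptor element (TGTTCT), the last 2 each being 1 arm of a longer site.
Pck1: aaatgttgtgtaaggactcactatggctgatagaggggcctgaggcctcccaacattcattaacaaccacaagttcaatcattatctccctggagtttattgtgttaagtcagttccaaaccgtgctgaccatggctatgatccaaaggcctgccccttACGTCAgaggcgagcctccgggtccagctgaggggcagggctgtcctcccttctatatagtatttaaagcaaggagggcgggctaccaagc
Slc5a1: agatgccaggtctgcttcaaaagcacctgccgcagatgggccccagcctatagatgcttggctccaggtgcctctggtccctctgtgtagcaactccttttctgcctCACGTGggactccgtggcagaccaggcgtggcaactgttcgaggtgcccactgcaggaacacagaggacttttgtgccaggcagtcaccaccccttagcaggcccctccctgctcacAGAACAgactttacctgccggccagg
Fbp1: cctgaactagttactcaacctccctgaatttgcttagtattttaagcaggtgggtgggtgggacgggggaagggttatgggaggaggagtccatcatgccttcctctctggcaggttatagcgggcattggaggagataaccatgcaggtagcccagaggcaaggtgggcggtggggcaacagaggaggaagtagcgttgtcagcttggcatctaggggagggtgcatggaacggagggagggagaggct
Khk: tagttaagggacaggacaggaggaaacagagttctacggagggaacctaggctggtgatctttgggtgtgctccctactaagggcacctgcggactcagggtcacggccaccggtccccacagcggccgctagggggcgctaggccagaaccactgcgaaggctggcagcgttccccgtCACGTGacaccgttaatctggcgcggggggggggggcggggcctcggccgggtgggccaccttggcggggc
The Pck1 stretch holds the cAMP element core at 91 to 86 bases before the start. The Slc5a1 stretch holds an E-box at 143 to 138 bases and the reverse of the steroid receptor arm at 26 to 21 bases before the start, and the Khk stretch an E-box at 71 to 66 bases. Of 32851 RefSeq promoters of this length, 6.02% hold the E-box, 6.47% the cAMP element core, 14.0% the nuclear receptor arm and 16.1% the steroid receptor arm. The Slc2a2 stretch holds the nuclear receptor arm at 21 to 16 bases, and none of the letters occurs in the stretches of Slc2a1 and Fbp1. These are matches of letters in a window and no evidence of binding.

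The libraries held 93172739 to 137819127 UMIs, with a median of 4845 to 9340.5 UMIs in barcodes with at most 50% mitochondrial UMIs. Any 2 libraries shared 33 to 69 barcode sequences, at most 0.525% of the smaller one. After removal of likely doublets 55630 cells remained, of which 28226 fell into clusters that carried proximal tubule markers. Among these, 12465 cells were S1-like, 9748 S2-like, 295 S3-like and 793 injured proximal-like, and 4925 cells in 3 subclusters stayed without a segment. The S3-like cells were few in every mouse, 15 to 34 in sham and 54 to 86 in DOCA-salt, and the injured proximal-like cells numbered 17 to 48 in sham and 191 to 278 in DOCA-salt. The segment names hold loosely. Of the S1-like, S2-like and S3-like cells, 61.2% got the same segment when each cell was assigned by its own marker scores, and 12.5% of proximal cells had their highest 2 segment scores within 0.1 of each other. No S2 marker was among the 10 leading genes of the S2-like subclusters. Slc5a12, an S1 carrier, stood at a mean of 873 CPM (UMIs scaled to the same total for every mouse and class) in S1-like, 76.0 CPM in S2-like and 142 CPM in S3-like cells of sham mice, and Slc7a13, an S3 carrier, at 306 CPM in S2-like and 847 CPM in S3-like cells. Havcr1, the injury marker Kim-1, had 123 CPM in injured proximal-like cells of DOCA-salt mice and 2.03 CPM in their S1-like cells. The subclusters that make up a segment were not the same in both groups. Of the S2-like cells, subcluster 1 held 2808 cells of sham and 166 of DOCA-salt mice and subcluster 6 held 2504 and 53, whereas subcluster 3 held 107 of sham and 2184 of DOCA-salt mice and subcluster 14 held 28 and 1898. In S1-like cells, subcluster 9 held 1624 cells of sham and 41 of DOCA-salt mice and subcluster 10 held 73 and 1465. Segments drawn by marker scores, or from subclusters at the finer Leiden resolution of 2, are other sets of cells. S3-like cells then numbered 524 to 1336 per mouse by marker scores and 422 to 1177 at resolution 2. Most S2-like cells of sham mice at resolution 2 lay in fine subclusters 2 and 9, with medians of 3987 and 1221 UMIs. Those of DOCA-salt mice lay mostly in fine subclusters 19 and 20, with medians of 13025 and 6852 UMIs. Among S3-like cells at resolution 2, fine subcluster 18 held 729, 484 and 393 cells of the sham mice and 6 of each DOCA-salt mouse. Fine subcluster 6 held 257, 144 and 314 of sham and 5, 4 and 8 of DOCA-salt mice. Fine subcluster 27 held 2, 10 and 3 of sham and 365, 144 and 158 of DOCA-salt mice. The other fine subclusters of that set, 10, 15 and 24, held at least 15 cells of every mouse. The members were left out of the genes used for clustering. Sham mouse 2 stood apart from the other 2 sham mice in several members, and values without it are given where it decides a result.

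In the pooled proximal tubule 1 of the 7 members, Pck1, passed the test (edgeR quasi-likelihood, Benjamini-Hochberg adjusted p below 0.05) and is therefore called here, and its level was higher in DOCA-salt. Over all 16437 genes tested in these cells, 12.3% were called. In S1-like cells 2 of 7 members were called, against 3.96% of 14471 genes, and in S2-like cells 2 of 7, against 9.19% of 13684 genes. Those were Pck1 and Slc5a1 in both segments, each higher in DOCA-salt. In S3-like cells 6 members passed the filter on low counts and 0 were called, against 0.555% of 5406 genes. There 2 members had an unadjusted p below 0.05 and DESeq2 called 1. The shares of all genes by these measures are not given here, so these counts are no result about the members. In whole-kidney sums 3 members were called, against 17.3% of 19658 genes, with Pck1 higher and Fbp1 and Khk lower.

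The members differed in level along the proximal tubule, and most of their orders held in 6 of 6 mice. Slc5a2 was highest in S1-like cells, with 709 ± 154 CPM (SD, n = 3) in sham mice against 62.1 ± 33.5 CPM in S2-like cells. Endothelial cells, which should lack the gene, held 41.0 ± 22.3 CPM, so the S2-like level stands close to the background of free RNA. Slc5a1 went the other way, from 2.17 ± 0.664 CPM in S1-like to 23.7 ± 5.53 CPM in S2-like and 46.8 ± 13.2 CPM in S3-like cells of sham mice, and S3-like exceeded S2-like cells in 6 of 6 mice. The endothelial background of Slc5a1 was 3.77 ± 0.320 CPM in sham mice, above its level in S1-like cells. Slc2a2 was lower in each later segment in 6 of 6 mice, from 304 ± 46.3 CPM in S1-like to 117 ± 13.8 CPM in S2-like and 51.9 ± 51.0 CPM in S3-like cells. Pck1 was highest in S2-like cells in 6 of 6 mice, at 1265 ± 253 CPM in sham against 601 ± 48.6 CPM in S1-like and 447 ± 101 CPM in S3-like cells. Fbp1 was higher in S1-like than in S2-like cells in 6 of 6 mice, by a factor of only 1.16 in sham. Khk was higher in S2-like than in S1-like cells in 6 of 6 mice, and in S3-like cells it lay above the S2-like level in 3 of 6 mice, so these neighbours in the order were not separated.

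The carriers Slc5a1 and Slc2a1 were highest outside the proximal tubule. Slc5a1 reached 242 ± 29.4 CPM in the thick ascending limb of sham mice and 230 ± 25.3 CPM in that of DOCA-salt mice, above every proximal segment in 6 of 6 mice. That limb held 59.3% ± 8.38 of all Slc5a1 UMIs in sham and 44.7% ± 3.37 in DOCA-salt mice, and the proximal tubule 36.0% ± 8.47 and 46.9% ± 5.62. The change of Slc5a1 in the thick ascending limb was -0.08 on the log2 scale (95% interval -0.35 to 0.19, adjusted p = 0.86), and its whole-kidney change was 0.02 (interval -0.23 to 0.26). Slc2a1 was highest in principal cells of the collecting duct, with 483 ± 77.9 CPM in sham and 417 ± 25.6 CPM in DOCA-salt mice, followed by the thin limb with 267 ± 25.3 and 265 ± 19.1 CPM and intercalated cells with 154 ± 29.7 and 155 ± 17.9 CPM. The proximal tubule held 14.2 ± 2.21 CPM of Slc2a1 in sham and 13.1 ± 1.11 CPM in DOCA-salt mice, below the 32.4 ± 8.35 CPM of endothelial cells. The other 5 members had 89.5% to 94.3% of their UMIs in the proximal tubule in sham mice.

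**Figure D1:**
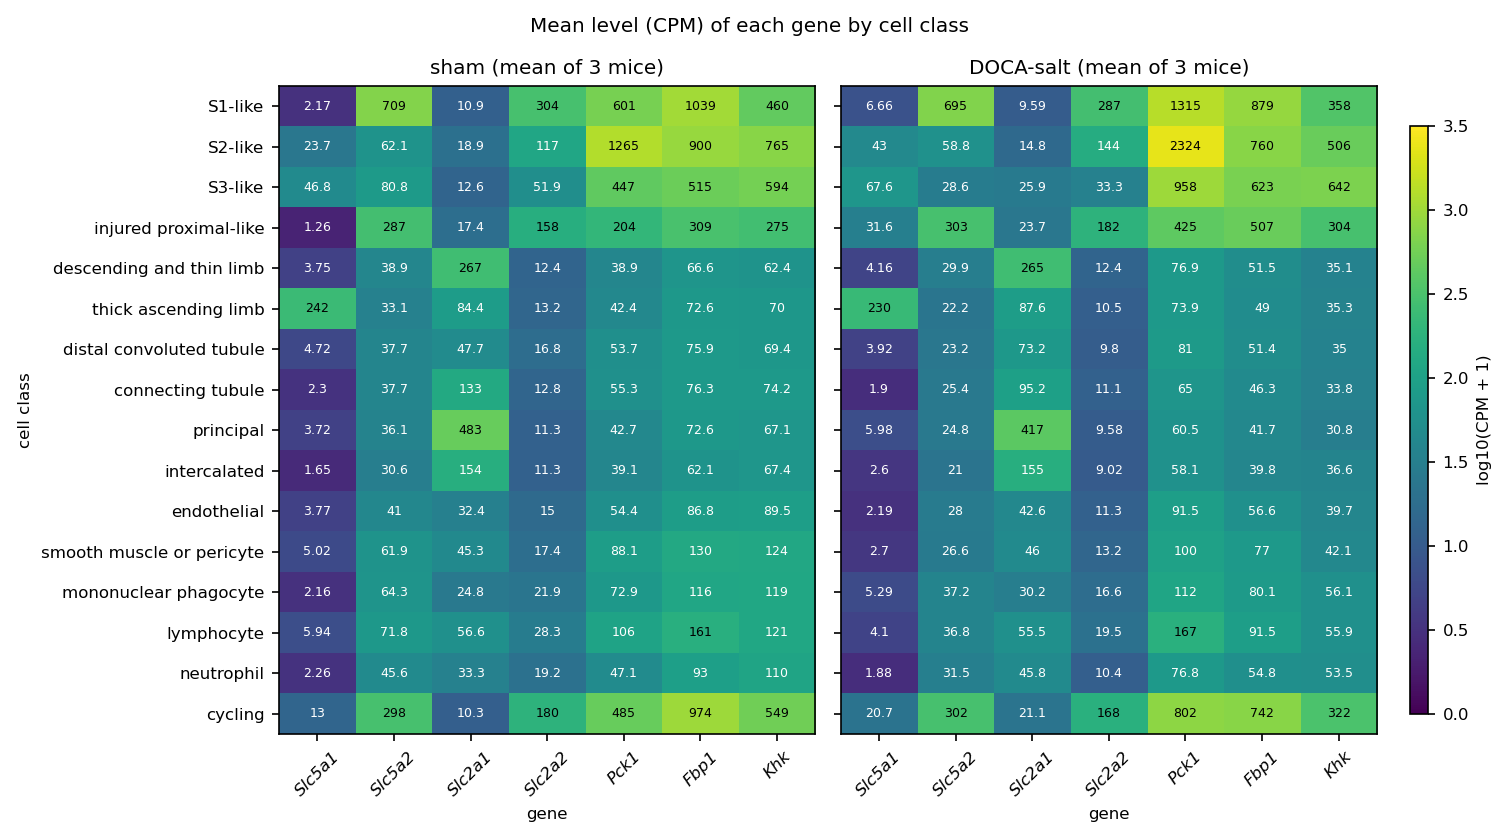
Mean level in CPM (UMIs scaled to the same total for every mouse and class) of the 7 genes, in columns, by cell class, in rows, for 3 sham mice (left) and 3 DOCA-salt mice (right), coloured by log10(CPM + 1). Slc5a1 is highest in the thick ascending limb, with 242 and 230 CPM, Slc2a1 in principal cells, with 483 and 417 CPM, and the other 5 genes in proximal classes.

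Over 18 classes and segments the mean levels of Fbp1 followed those of Lrp2 (Pearson correlation 0.993) and Hnf4a (0.991) closely, and those of Khk followed Keg1 (0.993) and Hnf4a (0.992). The genes most like the others were Slc34a3 for Slc5a2 (0.985), Cyp2d26 for Slc2a2 (0.986), Akr1c21 for Pck1 (0.986), Eps8l1 for Slc2a1 (0.935) and Cldn10 for Slc5a1 (0.847). Classes come from the same 6 libraries and share free RNA and depth, so these values are a description.

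Pck1 rose in DOCA-salt mice. In the proximal tubule as a whole it stood at 784, 900 and 900 CPM in the 3 sham mice and at 1758, 1350 and 1502 CPM in the 3 DOCA-salt mice. Every DOCA-salt mouse lay above every sham mouse. The log2 change was 0.74 ± 0.15 (SE, n = 3 and 3, adjusted p = 0.016). In S1-like cells the levels were 613, 548 and 643 CPM in sham and 1339, 1223 and 1385 CPM in DOCA-salt mice, again without overlap, and the log2 change was 1.06 ± 0.12 (adjusted p = 0.0024). S2-like cells held 1006, 1513 and 1275 CPM in sham and 2621, 2067 and 2283 CPM in DOCA-salt mice, a log2 change of 0.87 ± 0.19 (adjusted p = 0.020). With subclusters drawn at the finer Leiden resolution of 2, the change of Pck1 in S2-like cells was 1.89 (adjusted p = 2.5e-05). In that set the cells of the groups come mostly from different subclusters of unlike depth, so the value is no repeat of the main fit. The main S2-like cells also come mostly from different subclusters, 1 and 6 in sham and 3 and 14 in DOCA-salt mice. These had medians of 6608.5 and 13759 UMIs and of 6573 and 13650.5 UMIs. The part of this difference in the change of Pck1 was not tested. The change of Pck1 in the pooled S2 and S3 subclusters was 0.19 below that in S1-like cells (SE 0.12, adjusted p = 0.42), a difference that did not pass the test. S3-like cells had 537, 467 and 337 CPM in sham and 1269, 781 and 825 CPM in DOCA-salt mice, a log2 change of 0.96 ± 0.24 that missed the threshold (adjusted p = 0.10) in these few cells. DESeq2 called Pck1 there (1.01, adjusted p = 0.014), as did edgeR with library sizes only (1.09, adjusted p = 0.048) and without a filter on low counts (1.11, adjusted p = 0.0005). In the larger S3-like set by marker scores the change was 0.76 (adjusted p = 0.035), and in that at subcluster resolution 2 it was 0.22 (adjusted p = 0.53). Those sets hold mostly other cells, and at resolution 2 the S3-like cells of the groups lie largely in different fine subclusters. Injured proximal-like cells held the least Pck1 of the 4 groups, 160 to 264 CPM in sham and 356 to 473 CPM in DOCA-salt mice, and its level rose there as well, by 1.04 ± 0.19 on the log2 scale (adjusted p = 0.0023), against 7.02% of 11162 genes called in these cells. Within S1-like cells the rise of Pck1 stayed called when each mouse in turn was left out. In the whole proximal tubule it was lost without sham mouse 1 (log2 change 0.66, adjusted p = 0.065), DOCA-salt mouse 1 (0.61, adjusted p = 0.054) or DOCA-salt mouse 3 (0.76, adjusted p = 0.054), and in S2-like cells without any of the same 3 mice (adjusted p = 0.076 each time). With at most 20% mitochondrial UMIs it was 0.50 in the proximal tubule (adjusted p = 0.068) and stayed called in S1-like and S2-like cells.

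The share of proximal cells with a Pck1 UMI was higher too, which at a fixed depth follows from the level and is no separate finding. Without thinning it was 84.2% in sham and 91.6% in DOCA-salt mice on average, so most proximal cells carried Pck1 in both groups. With every cell thinned to 1000 UMIs, 43.6%, 46.3% and 48.7% of proximal cells had a Pck1 UMI in the sham mice and 70.3%, 62.0% and 65.8% in the DOCA-salt mice (exact permutation test, two-sided, p = 0.1, the smallest that 3 against 3 allows). Endothelial cells, as the background, had 6.97% ± 2.86 in sham and 9.77% ± 3.13 in DOCA-salt mice at a median depth of 3732 and 5945 UMIs, against 8923 and 9331 UMIs in proximal cells. Thinning left out 1118 proximal cells of sham and 1317 of DOCA-salt mice with fewer UMIs.

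**Figure D2:**
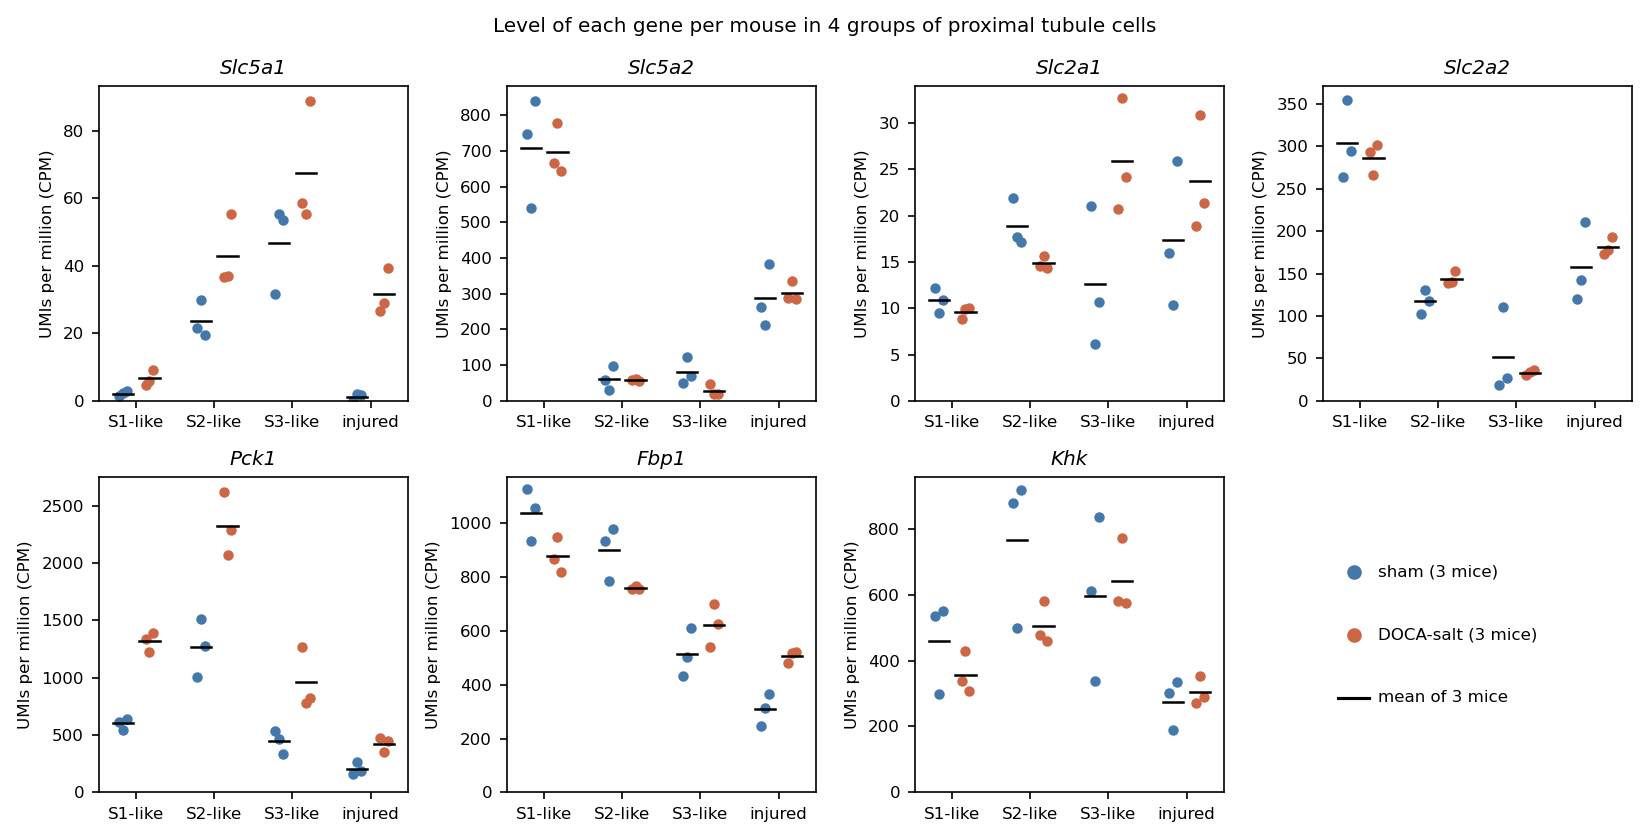
Level in CPM (vertical axis from 0, its own scale for each gene) of each gene in S1-like, S2-like, S3-like and injured proximal-like cells, with 1 point per mouse (blue, sham; orange, DOCA-salt) and a black line at the mean of 3. For Pck1 the 3 DOCA-salt mice lie above the 3 sham mice in all 4 groups of cells, and for Slc5a1 in S1-like, S2-like and injured proximal-like cells.

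Slc5a1 rose in S1-like and S2-like cells. S2-like cells, where the gene is expressed above the background, held 21.5, 30.0 and 19.6 CPM in sham and 36.7, 36.9 and 55.3 CPM in DOCA-salt mice. The lowest DOCA-salt mouse lay above the highest sham mouse, and the log2 change was 0.85 ± 0.19 (adjusted p = 0.026). The S2-like cells of the groups come mostly from different subclusters, and the part of this in the change was not tested. S1-like cells held 1.47, 2.26 and 2.79 CPM in sham and 4.82, 5.98 and 9.17 CPM in DOCA-salt mice, a log2 change of 1.54 ± 0.29 (adjusted p = 0.022). The sham level there rests on 131 UMIs in 3 mice and is below the endothelial 3.77 CPM, whereas the DOCA-salt level of 6.66 ± 2.25 CPM rests on 435 UMIs and lies above the endothelial 2.19 ± 0.356 CPM. Endothelial cells had a median of 3732 UMIs in sham and 5945 UMIs in DOCA-salt mice, and the part of depth in this background was not tested. In the pooled proximal tubule Slc5a1 had 14.6, 19.4 and 14.0 CPM in sham and 24.1, 22.7 and 33.4 CPM in DOCA-salt mice, and its log2 change of 0.64 ± 0.18 just missed the threshold (adjusted p = 0.053). It was called there without sham mouse 2 (0.79, adjusted p = 0.0089) and by DESeq2 (0.62, adjusted p = 0.019). In S1-like cells the call was lost without sham mouse 1 (1.29, adjusted p = 0.066) or DOCA-salt mouse 3 (1.27, adjusted p = 0.10), and with segments assigned cell by cell from marker scores (0.88, adjusted p = 0.26). In S2-like cells it was lost without sham mouse 1 (adjusted p = 0.095), sham mouse 3 (0.080) or DOCA-salt mouse 3 (0.096), and with marker scores per cell (0.83, adjusted p = 0.070). S3-like cells had 31.6, 55.3 and 53.5 CPM in sham and 58.6, 55.3 and 88.8 CPM in DOCA-salt mice, with a log2 change of 0.46 (95% interval -0.24 to 1.15). Without sham mouse 1 it was 0.12 (adjusted p = 0.98). In the larger S3-like set at subcluster resolution 2, mostly other cells, Slc5a1 was called at 1.14 (adjusted p = 0.0016). There the cells of the groups lie largely in different fine subclusters, so the value is no repeat of the main fit. At 1000 UMIs per cell, 1.32%, 1.72% and 1.39% of proximal cells had a Slc5a1 UMI in sham and 2.19%, 2.04% and 2.88% in DOCA-salt mice, without overlap (exact permutation test, two-sided, p = 0.1, the smallest possible), against 0.348% and 0.224% of endothelial cells.

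In injured proximal-like cells Slc5a1 was nearly absent from sham mice, with 0, 1 and 1 UMIs (0, 2.07 and 1.73 CPM), and present in all DOCA-salt mice, with 26.5, 28.9 and 39.4 CPM from 119, 162 and 203 UMIs. The ratio of the summed levels was 20.8 (95% counting interval 5.73 to 173, exact binomial, which covers counting error only). No test is given for Slc5a1 here, since the sham mice held 2 UMIs in all and the gene passed the filter on low counts through the DOCA-salt mice. The sham cells of this kind numbered 97 in all. These cells carried 303 ± 28.9 CPM of Slc5a2 in DOCA-salt mice, between the S1-like and S2-like levels.

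The change of Slc5a1 was compared between segments in 1 model with each mouse as a block. Because S3-like cells were few, all subclusters whose best match was S2 or S3 were pooled, where Slc5a1 changed by 0.75 ± 0.19 (adjusted p = 0.042), Pck1 by 0.86 ± 0.18 (adjusted p = 0.019) and 9.28% of 14440 genes were called. In these pooled subclusters the call on Slc5a1 was lost without any 1 mouse other than sham mouse 2 (adjusted p from 0.068 to 0.16) and by marker scores (0.054), and that on Pck1 without sham mouse 1 (0.071), DOCA-salt mouse 1 (0.071) or DOCA-salt mouse 3 (0.076). The log2 change of Slc5a1 in the pooled S2 and S3 subclusters was 0.81 below that in S1-like cells (SE 0.18, adjusted p = 0.015, with 5.57% of genes called), although the difference in CPM between groups was larger in S2-like cells, where the level starts higher. The pooled comparison was not run by marker scores. Slc5a1 in S3-like cells alone against S1-like cells was not called, at -1.0 (adjusted p = 0.34) and at -0.29 by marker scores (adjusted p = 0.58), with 0.993% of genes called in that comparison, which called Slc5a2. Slc5a2 in S3-like cells had 50.0, 123 and 69.5 CPM in sham and 47.4, 18.1 and 20.2 CPM in DOCA-salt mice, and its log2 change was 1.24 lower than in S1-like cells (adjusted p = 0.010). These levels rest on 19, 20 and 13 UMIs in the sham mice and stand near the endothelial 41.0 and 28.0 CPM. With segments assigned by marker scores, which gives a larger S3-like set of mostly other cells, the difference was -0.22 (adjusted p = 0.66).

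Slc5a2 itself showed no detectable change where it is expressed. S1-like cells held 746, 540 and 840 CPM in sham and 665, 777 and 644 CPM in DOCA-salt mice. The groups overlapped, and the log2 change was -0.10 (95% interval -0.47 to 0.28, adjusted p = 0.83). In the pooled proximal tubule the change was 0.02 (interval -0.39 to 0.43, adjusted p = 0.96). The log2 ratio of Slc5a1 to Slc5a2 UMIs in proximal cells was -4.58, -3.88 and -5.01 in sham and -3.85, -4.35 and -3.46 in DOCA-salt mice, a mean difference of 0.60 (exact permutation test, two-sided, p = 0.2). In S2-like cells the ratio was higher by 0.78 with overlap (exact p = 0.4), and at subcluster resolution 2 by 3.65 without overlap (exact p = 0.1). In S3-like cells it was higher by 2.03 without overlap (exact p = 0.1), and by 0.75 with overlap by marker scores (exact p = 0.4). In S1-like cells the ratio was higher by 1.61, without overlap between the groups (exact p = 0.1, the smallest possible), but with segments assigned by marker scores the difference was 0.79 with overlap (exact p = 0.3), and the sham level of Slc5a1 in it lies below that of endothelial cells. In S2-like cells the change of Slc5a2 was -0.11 (adjusted p = 0.87). At subcluster resolution 2, where the S2-like cells of the groups differ in depth and subcluster, it was -2.48 (adjusted p = 2.7e-06).

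Slc2a2, the basolateral carrier, had 264, 354 and 294 CPM in S1-like cells of sham and 293, 266 and 301 CPM in those of DOCA-salt mice. The groups overlapped, and the log2 change was -0.17 (95% interval -0.50 to 0.16, adjusted p = 0.61). In S2-like cells Slc2a2 stood at 103, 131 and 118 CPM in sham and at 139, 140 and 153 CPM in DOCA-salt mice, a log2 change of 0.29 ± 0.12 that missed the threshold (adjusted p = 0.17). At subcluster resolution 2 the change of Slc2a2 in S2-like cells was called in the opposite direction (-0.71, adjusted p = 0.0065), in cells of unlike depth between the groups. Its change in the pooled S2 and S3 subclusters was 0.30 above that in S1-like cells (SE 0.079, adjusted p = 0.037), a call that was lost with library sizes as the only scaling (0.26, adjusted p = 0.052) and at 20% mitochondrial UMIs (0.22, adjusted p = 0.11). Slc2a1 had a log2 change of -0.22 (interval -0.50 to 0.07, adjusted p = 0.30) in the proximal tubule. In S2-like cells Slc2a1 had 21.9, 17.7 and 17.1 CPM in sham and 14.6, 15.6 and 14.3 CPM in DOCA-salt mice, without overlap but also without passing the test (-0.36, interval -0.65 to -0.07, adjusted p = 0.11). It was called there without sham mouse 2 (-0.44, adjusted p = 0.039) and with segments assigned by marker scores (-0.55, adjusted p = 0.043), and had the opposite sign at subcluster resolution 2 (0.24, adjusted p = 0.42). In connecting tubule cells Slc2a1 fell, from 166, 110 and 122 CPM in sham to 83.1, 81.2 and 121 CPM in DOCA-salt mice, by 0.69 on the log2 scale (SE 0.20, adjusted p = 0.021), with 1 DOCA-salt mouse inside the sham range and 12.1% of genes called lower in this class. This call on Slc2a1 was lost without sham mouse 1 (adjusted p = 0.12), DOCA-salt mouse 1 (0.091) or DOCA-salt mouse 2 (0.093). In distal convoluted tubule cells Slc2a1 had a log2 change of 0.51 ± 0.18 the other way (adjusted p = 0.11), with 39.9 to 58.7 CPM in sham and 65.2 to 82.9 CPM in DOCA-salt mice.

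**Figure D3:**
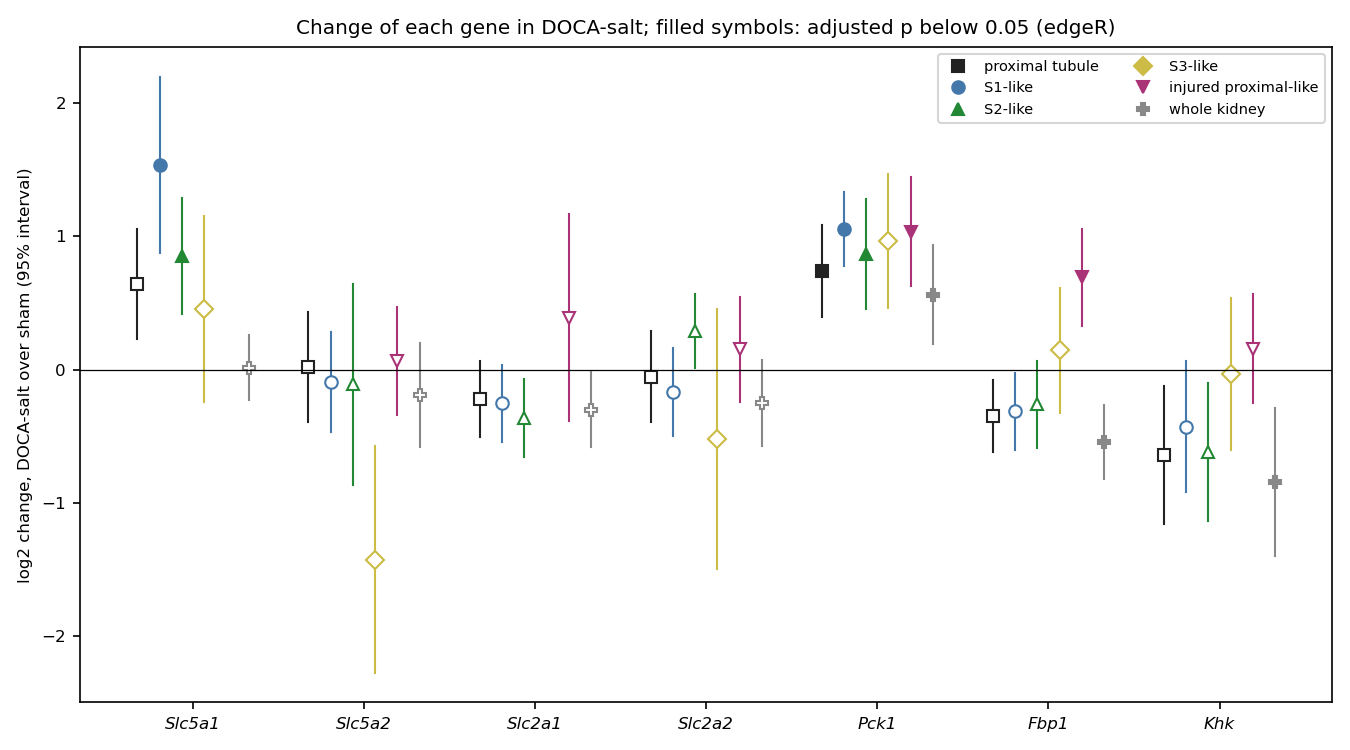
Log2 change, DOCA-salt over sham, of each gene (horizontal axis) in 6 sets of cells, from edgeR on sums of 3 and 3 mice, with 95% intervals and filled symbols where the adjusted p is below 0.05. Pck1 is filled in all sets but S3-like, and Slc5a1 in S1-like (1.54) and S2-like cells (0.85). Slc5a1 in injured proximal-like cells is not drawn, since the 3 sham mice held 2 UMIs of it in all.

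Fbp1 and Khk were lower in DOCA-salt in the whole-kidney sums. Fbp1 fell there by 0.55 on the log2 scale (SE 0.12, adjusted p = 0.018), from 707, 590 and 643 CPM in sham to 500, 493 and 449 CPM in DOCA-salt mice, without overlap. Khk fell by 0.84 (SE 0.24, adjusted p = 0.046), from 515, 272 and 481 CPM in sham to 260, 290 and 218 CPM in DOCA-salt mice, with sham mouse 2 inside the DOCA-salt range. Pck1 in the same sums had a log2 change of 0.56 ± 0.16 (adjusted p = 0.048). Each of these 3 calls depended on single mice. Pck1 was lost without sham mouse 1 (adjusted p = 0.16), sham mouse 3 (0.11), DOCA-salt mouse 1 (0.097) or DOCA-salt mouse 3 (0.11) and at 20% mitochondrial UMIs (0.29). Fbp1 was lost without sham mouse 1 (0.074), sham mouse 3 (0.054), DOCA-salt mouse 2 (0.064) or DOCA-salt mouse 3 (0.098), and Khk without any mouse other than sham mouse 2 (adjusted p from 0.079 to 0.17). Proximal cells were 52.4% of the cells of sham and 49.8% of those of DOCA-salt mice on average. The sums weigh cells by UMIs, of which proximal cells gave 59081309 of 90424969, 44549082 of 67926136 and 37680369 of 65101025 in sham mice. In DOCA-salt mice they gave 55047813 of 91482820, 52409673 of 103296040 and 38039836 of 71280973. A sum over all cells holds both the share of UMIs from proximal cells and the level in them, and these parts were not tested apart. Within the proximal tubule Fbp1 stood at 994, 843 and 976 CPM in sham and at 775, 838 and 748 CPM in DOCA-salt mice, a log2 change of -0.35 ± 0.12 (adjusted p = 0.095). Khk stood at 714, 384 and 712 CPM in sham and at 398, 483 and 358 CPM in DOCA-salt mice, a log2 change of -0.64 ± 0.23 (adjusted p = 0.11). For Khk, sham mouse 2 alone lay within the DOCA-salt range. Without that mouse both were called in the proximal tubule, Khk at -0.89 (adjusted p = 0.0027) and Fbp1 at -0.43 (adjusted p = 0.026), and Khk also in S1-like (-0.65, adjusted p = 0.020) and S2-like cells (-0.88, adjusted p = 0.0029). That mouse was singled out after its values were seen. Without sham mouse 1 neither was called in the proximal tubule, with Khk at -0.53 (adjusted p = 0.27) and Fbp1 at -0.33 (adjusted p = 0.21). The same held with the replicate number as a block (adjusted p = 0.27 and 0.30). DESeq2 called both with all mice, Khk at an adjusted p of 0.031 and Fbp1 at 0.014, and so did edgeR at 20% mitochondrial UMIs, with Khk at -0.81 (adjusted p = 0.038) and Fbp1 at -0.47 (adjusted p = 0.039). Injured proximal-like cells differed in direction for Fbp1, which rose there by 0.69 (SE 0.17, adjusted p = 0.018), from 248 to 366 CPM in sham to 480 to 523 CPM in DOCA-salt mice. That difference in direction was not tested, and the rise of Fbp1 was lost without sham mouse 1 (0.57, adjusted p = 0.079) or DOCA-salt mouse 3 (0.67, adjusted p = 0.072).

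By segment, Fbp1 stood at 1126, 933 and 1058 CPM in S1-like cells of sham and at 868, 951 and 819 CPM in those of DOCA-salt mice, with 1 DOCA-salt mouse inside the sham range (log2 change -0.31, 95% interval -0.60 to -0.02, adjusted p = 0.24). In S2-like cells Fbp1 had 934, 784 and 980 CPM in sham and 756, 768 and 754 CPM in DOCA-salt mice, just below the lowest sham mouse (-0.26, interval -0.59 to 0.07, adjusted p = 0.29). Fbp1 was called there without sham mouse 2 (-0.38, adjusted p = 0.044) and at subcluster resolution 2 (-0.79, adjusted p = 0.0012). Khk in S1-like cells had 534, 298 and 549 CPM in sham and 337, 429 and 306 CPM in DOCA-salt mice (-0.43, interval -0.92 to 0.06, adjusted p = 0.35). In S2-like cells, where Khk was higher, it had 878, 499 and 919 CPM in sham and 478, 581 and 458 CPM in DOCA-salt mice (-0.62, interval -1.14 to -0.10, adjusted p = 0.12). Khk was called there by DESeq2 (adjusted p = 0.042), without a filter on low counts (0.0055), at 20% mitochondrial UMIs (0.048) and at subcluster resolution 2 (0.0075), at log2 changes of -0.63 to -0.84. In both segments sham mouse 2 was the lowest mouse of all 6 or lay among the DOCA-salt mice. At 1000 UMIs per cell, 55.5% of proximal cells had an Fbp1 UMI in sham and 52.7% in DOCA-salt mice (exact permutation p = 0.3), and 42.0% and 34.5% a Khk UMI (exact p = 0.3). The endothelial background was 11.3% and 6.73% for Fbp1 and 10.5% and 4.53% for Khk.

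Khk was also called lower in 6 of 12 cell classes outside the proximal tubule, with 2.94% of genes called lower in the distal convoluted tubule, 4.86% in endothelial cells, 0.926% in smooth muscle or pericytes, 2.71% in mononuclear phagocytes and 1.37% in lymphocytes, beside the connecting tubule. In mononuclear phagocytes it stood at 131, 70.9 and 155 CPM in sham and at 52.4, 65.4 and 50.4 CPM in DOCA-salt mice (log2 change -1.17 ± 0.22, adjusted p = 0.0030). Sham mouse 2 was again the lowest of its group. Fbp1 was called lower in connecting tubule cells (-0.96, adjusted p = 0.021) and lymphocytes (-0.84, adjusted p = 0.047). The mean level of Khk in these 6 classes lay between 69.4 and 124 CPM in sham mice, against 603 CPM in the proximal tubule, and free RNA from proximal cells can give such a level in every class. Its part in these changes was not tested. Of 78 pairs of a member and a class tested outside the proximal tubule 9 were called, where 0.671% to 24% of all genes were called by class, against 34 without sham mouse 2 and 1 to 5 without any other mouse. The shares of all genes called in the fits with 1 mouse left out are not given here, so those counts are no result about the members. Khk in mononuclear phagocytes stayed called in each of these 6 fits.

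Other genes of the same routes were compared from lists. Of 13 other gluconeogenesis genes tested in the proximal tubule 0 were called, with a median log2 change of -0.25 against -0.01 over all genes, and 0 of the same 13 in S1-like and in S2-like cells. G6pc, which releases free glucose at the end of the route, had 353 ± 42.0 CPM in sham and 440 ± 57.4 CPM in DOCA-salt mice (0.22 ± 0.14, adjusted p = 0.35). Of 4 other fructose genes 0 were called, all 4 with negative values. The counts of called genes in the lists that follow stand beside the 12.3% of all genes called in the proximal tubule. Of 13 other hexose carriers 2 were called, both lower: Slc2a12 (-0.48, adjusted p = 0.043) and Slc5a4a (-1.33, adjusted p = 0.020), the latter at a mean of 1.04 CPM in sham mice. The fructose carrier Slc2a5 had a log2 change of -0.54 ± 0.17 in the proximal tubule (adjusted p = 0.076) and fell in S1-like cells (-0.81 ± 0.17, adjusted p = 0.032). Slc5a10 (-0.26, adjusted p = 0.49), Slc5a8 (-0.08, adjusted p = 0.81) and the SGLT2 partner Pdzk1ip1 (0.11, adjusted p = 0.68) were not called.

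Of the genes of glutamine use, Slc38a3, which carries glutamine into the cell, stood at 3.47, 2.42 and 3.93 CPM in sham and at 14.4, 13.4 and 13.4 CPM in DOCA-salt mice (1.98 ± 0.18, adjusted p = 5.3e-04). The groups did not overlap in Slc38a3. Slc38a3 lies under the 20 CPM minimum for named genes and was chosen after its values were seen, as were Slc2a12, Slc5a4a, Pfkp, Hk2, Pfkm, Irs1, Txnip, Egr1, Ier2 and Fos. Of 15 glycolysis genes 3 were called. Within segments 1 of 14 was called in S1-like and 1 of 14 in S2-like cells, each higher, against 3.96% and 9.19% of all genes there. The phosphofructokinase Pfkp rose from 5.02 ± 0.919 to 29.0 ± 5.73 CPM (2.44 ± 0.19, adjusted p = 3.6e-04), whereas Pfkm fell (-0.47, adjusted p = 0.024). The hexokinase Hk2 stood at 0.0984 CPM in sham and 1.32 CPM in DOCA-salt mice. Its call, counted above, is no support for a rise, since the gene passed the filter on low counts through the DOCA-salt mice. Of 15 regulators 3 were called, with Foxo3 (-0.48, adjusted p = 0.042) and Irs2 (-0.57, adjusted p = 0.036) lower and Irs1 (0.53, adjusted p = 0.047) higher. Within segments 1 of the 15 was called in S1-like and 1 in S2-like cells, each lower, beside the same shares of all genes. Hnf4a (-0.29, adjusted p = 0.13) was not called.

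Genes of the circadian clock differed between the groups in the same cells. Of 10 clock genes tested in the proximal tubule, 6 were called lower and 2 higher. The clock and fasting lists were added after the leading genes of the subclusters were seen. Nr1d1 led subcluster 6 and Pdk4 subcluster 14, which differ between the groups in cell number, so the counts from these lists are a description and no test. Nr1d1, a clock repressor, stood at 141, 119 and 86.2 CPM in sham and at 30.0, 46.7 and 32.9 CPM in DOCA-salt mice (-1.75 ± 0.20, adjusted p = 0.0013). Dbp had a log2 change of -2.59 (adjusted p = 0.0013), Nr1d2 of -1.05, Tef of -0.93, Per3 of -0.78 and Per1 of -0.64, while Arntl (1.71, adjusted p = 0.011) and Npas2 (1.71, adjusted p = 0.017) were higher. Of 5 genes that rise in fasting 1 was called, Pdk4, with 181, 239 and 172 CPM in sham and 530, 375 and 344 CPM in DOCA-salt mice (0.99 ± 0.20, adjusted p = 0.015). In S1-like cells Pdk4 (1.36) and Txnip (0.88, adjusted p = 0.021) were both higher. The mice had food freely available under a daily light and dark cycle per the study's methods. The hour of collection is not given in the sources used here, and the part of clock and fasting genes in the change of Pck1 was not tested. Of 10 genes that respond to dissociation 0 were called in the proximal tubule, with 2 called lower in S1-like cells, Egr1 (-0.91) and Ier2 (-0.69), and Fos called higher in S2-like cells (0.60, adjusted p = 0.040), and their part was not tested.

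**Figure D4:**
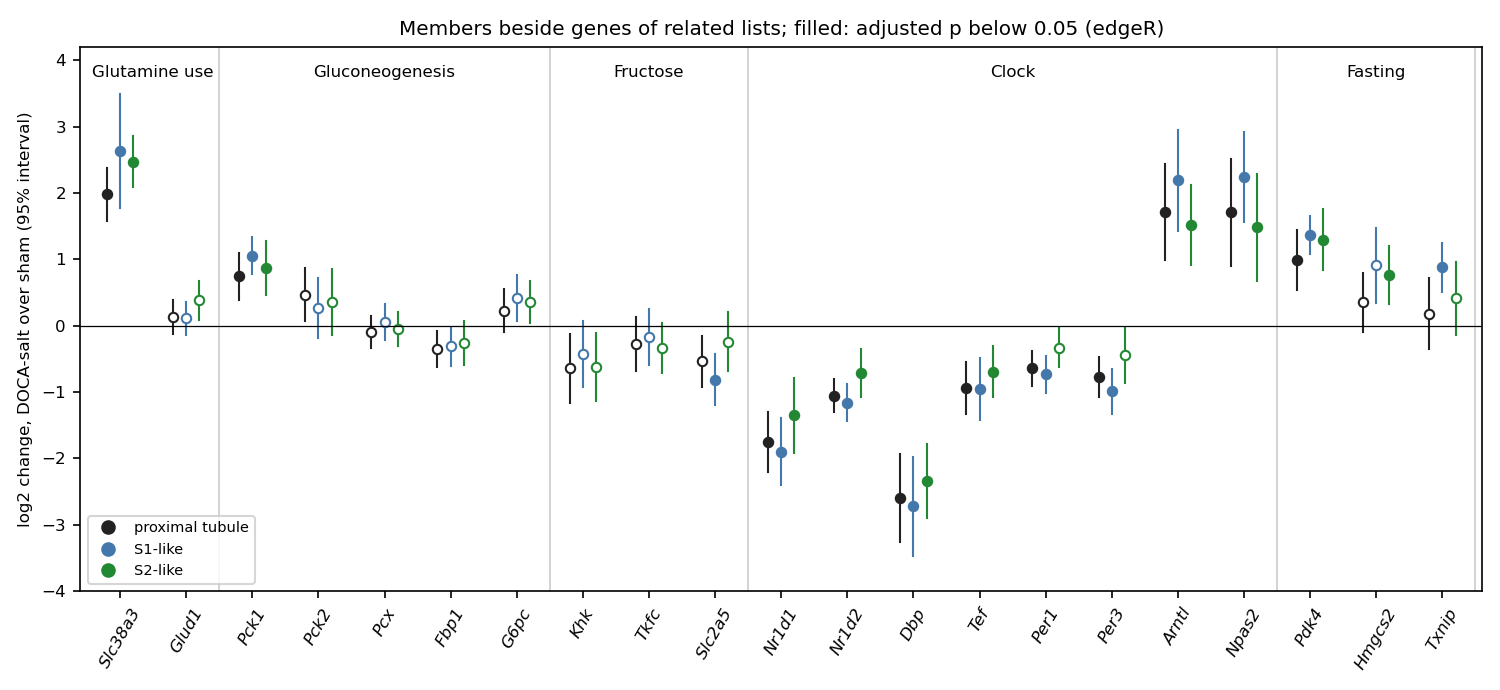
Log2 change, DOCA-salt over sham, of Pck1, Fbp1 and Khk beside genes of glutamine use, gluconeogenesis, fructose handling, the circadian clock and fasting, in proximal tubule (black), S1-like (blue) and S2-like cells (green), with 95% intervals and filled symbols where the adjusted p is below 0.05. Slc38a3, Pck1, Arntl, Npas2 and Pdk4 lie above 0, and Nr1d1, Nr1d2, Dbp and Tef lie below it in all 3 sets of cells.

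S1-like cells made up 43.5% ± 3.09 of proximal cells in sham and 45.2% ± 3.32 in DOCA-salt mice (exact permutation p = 0.6), and the groups overlapped. S2-like cells made up 37.8% ± 5.42 and 30.6% ± 5.81 (exact p = 0.2), but this share depended on the processing. At 20% mitochondrial UMIs it was 46.6% and 33.4%, and without doublet removal 27.7% and 41.8%, each without overlap (exact p = 0.1) and in opposite directions. S3-like cells made up 0.480% in sham and 1.61% in DOCA-salt mice and injured proximal-like cells 0.70% and 5.03%, each without overlap (exact p = 0.1, the smallest possible). Without the injured cells the log2 change of Pck1 in the proximal tubule was 0.88 (adjusted p = 0.011) and that of Slc5a1 was 0.625 (adjusted p = 0.064).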

How the data were processed

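Kidney cells of 3 sham and 3 DOCA-salt mice were profiled with droplet 3′ chemistry, 1 library per mouse. The authors deposited raw UMI counts per gene and barcode, and the submitters' notes name Cell Ranger 9.0.0 and GRCm39, while the matrix headers name version 8.0.1. Replicates are separate mice.

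Barcodes were kept from 500 UMIs and 170 genes upward if mitochondrial transcripts made up no more than 50% and hemoglobin transcripts no more than 5% of their UMIs. Likely doublets (Scrublet in Scanpy 1.11.5, highest scores, 0.8% per 1000 barcodes) were removed. Cells were clustered (Leiden) on 2000 variable genes without the 7 members, and named from marker lists. Counts were summed per mouse and class and tested with edgeR 4.0.16 (filterByExpr, TMM, quasi-likelihood, Benjamini-Hochberg over all genes tested, threshold 0.05), with DESeq2 1.42.0 as an alternative. CPM values are summed UMIs scaled to a fixed total, whereas log2 changes carry the TMM scaling. Error after ± is the SD for CPM and percentages and the SE for log2 changes. In simulated counts the test recovered 66% of 2-fold and 96% of 4-fold changes in the proximal tubule and 33% and 87% in S3-like cells. Of its calls there, 14 of 176 in the proximal tubule and 7 of 127 in S3-like cells were false. False calls were 13 of 178 in S1-like and 16 of 187 in S2-like cells. In the pooled S2 and S3 subclusters they were 10 of 187 and in the whole kidney 6 of 167. Other alternatives were scaling, filters, mitochondrial and depth limits, segment assignment and leaving out each mouse. Intervals on counts cover counting error only.

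The members and gene lists were chosen with earlier results of these data known, and the clock and fasting lists were added after the subclusters' leading genes were seen. Named from the lists were fixed genes and the called genes of largest change with at least 20 CPM, and genes outside that rule are marked as such. Some genes under the rule are not reported here. Same-numbered mice did not deviate together (correlations -0.205, -0.660 and -0.238), so the numbers were not taken as pairs.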

Additional observations from a re-analysis of the deposited data

Results flagged for a closer look

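The change of Slc5a1 differed between segments in the test of the difference itself, with a log2 value of -0.81 for the pooled S2 and S3 subclusters minus S1-like cells (adjusted p = 0.015, edgeR). The sham level of Slc5a1 in S1-like cells lies below that of endothelial cells, this comparison was not run by marker scores, and for S3-like minus S1-like cells the value was -1.0 (adjusted p = 0.34) and -0.29 by marker scores (adjusted p = 0.58). The change of Slc2a2 differed the other way, by 0.30 (adjusted p = 0.037). That call was lost with library sizes only (0.26, adjusted p = 0.052) and at 20% mitochondrial UMIs (0.22, adjusted p = 0.11). The change of Slc5a2 in S3-like minus S1-like cells was -1.24 (adjusted p = 0.010), and -0.22 by marker scores (adjusted p = 0.66). The S3-like set by marker scores is larger and holds mostly other cells.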

How the results depend on the processing

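Pck1 in S1-like cells kept its direction and its call in every alternative run, between 0.75 and 1.13 on the log2 scale. Of 121 alternatives of the summary results, 72 stayed the same and 49 moved. The counts of members that follow stand without the share of all genes called in the same alternative fit. They show how the calls moved and are no result about the members against other genes. In the proximal tubule 1 member was called, against 4 by DESeq2, 3 without a filter on low counts, 2 with library sizes only, 2 at 20% mitochondrial UMIs, 2 without doublet removal and 2 in cells with at least 2000 UMIs, and 0 to 4 with 1 mouse left out. With the replicate number as a block, 0 were called in the proximal tubule, in S2-like cells, in the pooled S2 and S3 subclusters and in the whole kidney. In S1-like cells 1 of the 2 calls remained by marker score per cell and 1 to 3 members were called with 1 mouse left out. In S2-like cells 6 were called at subcluster resolution 2 and 0 to 5 with 1 mouse left out. In S3-like cells 1 was called by DESeq2, 1 with library sizes only, 2 without a filter, 1 by marker score and 1 at resolution 2, and 0 to 1 with 1 mouse left out. In the pooled S2 and S3 subclusters 1 was called by marker score and 0 to 3 with 1 mouse left out, in the whole kidney 0 to 4, and in the other classes 1 to 34. Of the differences between segments, 0 were called for S3-like cells by marker score, and for the pooled subclusters 1 with library sizes only and 1 at 20% mitochondrial UMIs. The S3-like comparison at 20% could not be fitted, since the sham mice had 11, 3 and 9 such cells and mice with under 10 were left out. Values changed sign as follows, uncalled except for Slc2a2 in S2-like cells at resolution 2, and the cause was not tested. In the proximal tubule Slc5a2 was -0.001 by DESeq2 and -0.137 to 0.214 with 1 mouse left out, and Slc2a2 was 0.045 with library sizes only, 0.123 at 20% mitochondrial UMIs, 0.004 without injured cells and -0.195 to 0.083 with 1 mouse left out. Slc5a2 in S1-like cells was 0.070 without doublet removal and -0.242 to 0.053 with 1 mouse left out. Slc5a2 in S2-like cells was 0.062 with the replicate block, 0.298 without doublet removal, 0.246 by marker score and -0.459 to 0.402 with 1 mouse left out, and at resolution 2 it was called at -2.48 (adjusted p = 2.7e-06). At resolution 2 Slc2a1 in S2-like cells was 0.242, Slc2a2 was called at -0.709 (adjusted p = 0.0065) and Pck1 was 1.89. The S2-like cells at resolution 2 come mostly from different subclusters of unlike depth in sham and DOCA-salt mice. The main S2-like cells and the S3-like cells at resolution 2 also lie largely in different subclusters between the groups. Khk in S3-like cells was 0.020 by DESeq2, 0.107 with library sizes only, 0.120 without a filter, 0.024 with the replicate block and -0.282 to 0.314 with 1 mouse left out. Slc2a2 in S3-like cells was 0.108 by marker score, 0.240 at resolution 2 and -1.147 to 0.511 with 1 mouse left out, and Fbp1 was -0.264 and -0.091 under the first 2 of these. Slc5a2 in the pooled S2 and S3 subclusters was 0.349 by marker score and -0.545 to 0.273 with 1 mouse left out, and Slc5a1 in the whole kidney was -0.033 to 0.110. The difference in the share of cells with a UMI was -1.31 to 3.83 percentage points for Slc5a2 and -0.587 to 2.04 for Slc2a2 with 1 mouse left out, and 1.75 for Fbp1 without thinning. The difference in the S2-like share was -13.3 points at 20% mitochondrial UMIs and 14.1 points without doublet removal, and with 1 mouse left out that of S1-like cells was -0.255 to 3.162 and that of proximal among all cells -6.045 to 0.045.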
